A study of Homo sapiens with 6 samples.

Results

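The insulin-like growth factor (IGF) axis was examined in HuCCT1 cells, a human intrahepatic cholangiocarcinoma (iCCA) line. It was taken as 10 genes chosen by name among the 20811 genes of the table, namely the ligand IGF2, the receptor IGF1R, the adaptor IRS1 and the binding proteins IGFBP1 to IGFBP7, and all 10 were measured. The line named HuCCT1/CD90+ had received a THY1-CMV-GFP lentivirus, which brings in the gene that encodes CD90. Its control, HuCCT1/CD90-, had received Lenti-CMV-GFP-2A-Puro-Blank. Both were transduced at a multiplicity of infection of 40 and kept in medium with fetal bovine serum, so that serum growth factors were present in both. Each line was measured in 3 libraries, and nothing in the labels says whether these came from separate cultures, so p-values measure only the spread between these libraries. One pair of lines was compared, and a difference between them cannot be told apart from a difference between the cell populations that grew out after transduction.

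IGF1 and IGF2 are secreted growth factors that activate the tyrosine kinase IGF1R, which hands the signal through adaptors such as IRS1 to PI3K and AKT. The IGF binding proteins hold the ligands outside the cell, carry them and compete with the receptor for them, and several also act on cells without binding IGF. Proteases such as PAPPA and HTRA1 cut individual binding proteins, and IGF2R, a receptor without kinase activity, takes IGF2 to the lysosome.

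Expression was measured by amplifying 1 short amplicon per gene, and the deposited unit is RPM, the reads of a gene scaled to the same total in each library. The libraries held 8587634 to 10551516 reads on genes, so 3 reads, the detection floor used here, correspond to between 0.284 and 0.349 RPM. THY1 reads numbered 0, 1 and 0 in HuCCT1/CD90-, and 435, 445 and 680 in HuCCT1/CD90+, which is the order the labels give. All 7 cholangiocyte markers examined were above the floor in both lines, with sums from 8210 to 9314 RPM in HuCCT1/CD90- and from 10974 to 11722 RPM in HuCCT1/CD90+. Of 6 fibroblast markers, 5 were called lower in HuCCT1/CD90+ by the rule given below, against 7.49% of all genes. The summed level was 41.8 to 64.9 RPM in HuCCT1/CD90- against 20.3 to 24.7 RPM in HuCCT1/CD90+. COL1A2, COL3A1 and DCN were at the floor in HuCCT1/CD90+, and COL1A2 and COL3A1 had only 3 to 13 reads per HuCCT1/CD90- library. Of the 3 endothelial markers, CDH5 was called lower and PECAM1 was not called. VWF went the other way and was not called, with 0 reads in each HuCCT1/CD90- library and 1, 3 and 4 reads in HuCCT1/CD90+. The sums over the 3 genes, mostly CDH5 in HuCCT1/CD90-, were 14.5 to 23.2 RPM against 0.643 to 1.51 RPM. PTPRC and CD3E of the 4 leukocyte markers and ALB, APOC3 and TTR of the 5 hepatocyte markers were at the floor in both lines, with sums of 120 to 144 against 88.1 to 105 RPM and of 3.59 to 5.89 against 0 to 0.751 RPM over these lists. Within them CD14 was 18.7-fold lower in HuCCT1/CD90+ (means of 80.8 and 4.32 RPM), CD68 was higher (50.8 and 92.2 RPM), and APOA1 and SERPINA1 were called lower. In bulk samples fewer cells of a type and less RNA per cell cannot be told apart, and the part of these markers in the results below was not tested.

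The binding proteins held the differences that passed the test, while the ligand genes were not detected in either line. A call needed a fold change of 1.5 or more and, after Benjamini-Hochberg adjustment across the 20811 genes, a limma p-value no higher than 0.05. IGFBP3, IGFBP4 and IGFBP5 were called lower in HuCCT1/CD90+, which makes 3 of the 10 genes, and none was called higher. Over all genes 7.49% were called lower and 7.59% higher. IGFBP7 was added as higher without the adjustment (9.98% of all genes lower and 10.1% higher), with edgeR (17.3% and 17.5%), with DESeq2 (12.1% and 12.8%), with median centring (9.87% and 8.92%) and with limma restricted to genes averaging 1 RPM or more (16.5% and 16.7%) or 10 RPM or more (13.7% and 15.6%). With the replicate number as a block IGFBP4 and IGFBP5 remained (4.86% and 5.24%), and with the block and genes averaging 1 RPM or more the 3 lower genes and IGFBP7 were called (16.8% and 17.0%). The median log2 fold change of the 10 genes was -0.18, or -0.42 over the 8 genes above the floor in at least 1 line, against 0 over all genes and -0.0087 over the 14098 genes above the floor. Libraries were fully separated between the lines for 4 genes that were lower and 1 that was higher in HuCCT1/CD90+, against 17.7% and 17.3% of all genes.

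**Figure D1:**
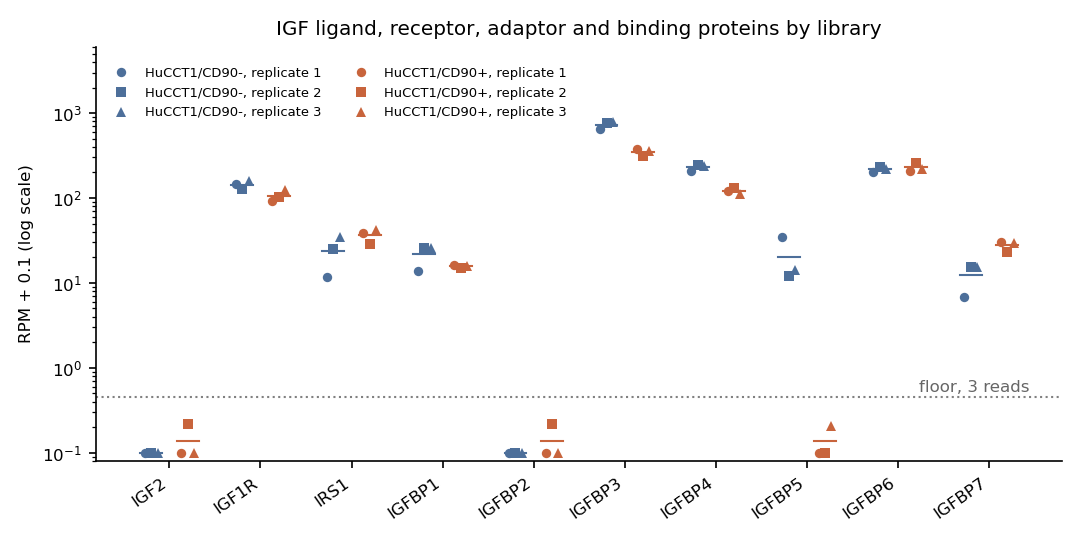
Each point is the RPM of 1 library plus 0.1 on a log scale, with the replicate number as its shape and the line as its colour, and short bars mark the means of 3 libraries. IGF2 and IGFBP2 lie under the floor of 3 reads in both lines and IGFBP5 in HuCCT1/CD90+, and IGFBP3 and IGFBP4 are lower in every HuCCT1/CD90+ library.

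IGF2 was without a read in HuCCT1/CD90-, and 1 read was found in HuCCT1/CD90+ replicate 2. IGF1 had 1 read in 1 HuCCT1/CD90- library and 0 reads in the other 5 libraries, and INS, the insulin gene, had 0 reads in all 6. No fold is given for these, and at this depth a level of up to 0.349 RPM could not be told from 0.

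IGFBP5, a binding protein that also attaches to extracellular matrix, was lost to detection. It was at 34.7, 12.1 and 14.3 RPM in the HuCCT1/CD90- libraries, from 113 to 366 reads, and at 0, 0 and 0.109 RPM in the HuCCT1/CD90+ libraries, the last being 1 read. From a mean of 20.3 ± 12.5 RPM (SD, n = 3) it was thus at least 58.2-fold lower in HuCCT1/CD90+, or at least 37.7-fold without HuCCT1/CD90- replicate 1. On the scale used for testing the fitted change was -4.22 in log2(RPM + 1) (standard error 0.43, adjusted p = 0.0062, limma), a value that depends on the offset. HuCCT1/CD90- replicate 1 lay well above the other two libraries of its line, and without it the log2 fold change was -3.77 (adjusted p = 0.0025, limma).

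IGFBP3, the main carrier of IGFs in blood, had the most reads of the 7 binding protein amplicons. The HuCCT1/CD90- libraries held 654, 761 and 784 RPM, against 378, 312 and 355 RPM in those of HuCCT1/CD90+. Every HuCCT1/CD90+ library lay under every HuCCT1/CD90- library. The mean went from 733 ± 69.3 to 349 ± 33.6 RPM (SD, n = 3 each), which is 47.5% of the HuCCT1/CD90- level. The difference on the log2 scale was -1.07 (standard error 0.11, adjusted p = 0.0062, limma), and with the replicate number as a block the adjusted p was 0.055. With the block over genes averaging 1 RPM or more, an alternative added after seeing the data, it was 0.00046.

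IGFBP4, a binding protein that mostly restrains IGF action, was at 210, 243 and 239 RPM in HuCCT1/CD90- and at 121, 133 and 112 RPM in HuCCT1/CD90+. Again the libraries of the lines did not overlap, and the spread within each line was small beside the gap. The means were 230 ± 18.0 and 122 ± 10.1 RPM (SD, n = 3 each), so HuCCT1/CD90+ held 53.0% of the HuCCT1/CD90- level. A log2 difference of -0.91 (standard error 0.090, adjusted p = 0.0058, limma) stayed past the threshold with each library left out and with the block.

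The bases just upstream of the starts of these 3 genes are shown because the genes were lower together, beside those of IGFBP6, which was not called. Starts of 7 of the 10 genes were matched in the RefSeq promoter table used here (GRCh38.p14), and the 250 bases before a start are printed 5′ to 3′ on the strand of the gene. The windows lie at chr7:45921273-45921522 on the minus strand for IGFBP3, at chr17:40443200-40443449 on the plus strand for IGFBP4, at chr2:216695550-216695799 on the minus strand for IGFBP5 and at chr12:53097417-53097666 on the plus strand for IGFBP6. Capitals mark the letters of 5 short motifs on either strand. These are the core promoter box TATAAA, the GC box as read by SP1 factors (GGGCGG), the E-box that ZEB and SNAI factors read (CACCTG), the AP-1 element in the form TGACTCA and the forkhead element in the form GTAAACA.

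IGFBP3: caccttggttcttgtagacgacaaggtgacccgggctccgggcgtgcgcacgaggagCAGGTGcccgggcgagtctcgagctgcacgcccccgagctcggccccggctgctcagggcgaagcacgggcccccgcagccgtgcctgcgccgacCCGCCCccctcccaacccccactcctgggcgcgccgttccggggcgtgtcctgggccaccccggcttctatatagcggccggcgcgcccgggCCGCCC

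IGFBP4: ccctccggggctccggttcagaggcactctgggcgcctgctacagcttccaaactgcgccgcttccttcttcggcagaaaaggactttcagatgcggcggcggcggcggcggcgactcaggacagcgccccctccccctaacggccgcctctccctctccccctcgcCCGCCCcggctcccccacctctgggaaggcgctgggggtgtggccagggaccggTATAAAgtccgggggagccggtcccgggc

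IGFBP5: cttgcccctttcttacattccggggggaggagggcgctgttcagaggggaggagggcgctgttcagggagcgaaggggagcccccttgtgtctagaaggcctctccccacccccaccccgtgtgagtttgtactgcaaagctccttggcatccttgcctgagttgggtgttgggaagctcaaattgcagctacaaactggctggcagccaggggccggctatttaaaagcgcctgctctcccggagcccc

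IGFBP6: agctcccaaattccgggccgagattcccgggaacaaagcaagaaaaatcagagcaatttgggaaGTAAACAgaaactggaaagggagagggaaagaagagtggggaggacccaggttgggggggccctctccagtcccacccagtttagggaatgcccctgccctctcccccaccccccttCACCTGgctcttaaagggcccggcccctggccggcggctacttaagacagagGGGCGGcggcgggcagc

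The window of IGFBP3 held 2 GC boxes and 1 E-box, and that of IGFBP4 held 1 GC box and a TATA box that begins 29 bases before the start. IGFBP6 had 1 GC box, 1 E-box and 1 forkhead match, and the window of IGFBP5 held none of the 5 letter runs. Of the 35116 windows of this length, 42.6% held the GC box, 17.5% the E-box, 10.7% the TATA box, 4.20% the AP-1 letters and 2.98% the forkhead letters. The windows of IGFBP3 and IGFBP4 held 32 and 24 CG dinucleotides and those of IGFBP5 and IGFBP6 held 8 and 9, with a median of 11 over all windows. Whether HuCCT1 cells use these starts was not measured.

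IGFBP6, which prefers IGF2 over IGF1, was about level between the lines. The HuCCT1/CD90- libraries held 204, 234 and 222 RPM and the HuCCT1/CD90+ libraries 209, 256 and 221 RPM, so the ranges lay over each other. Its log2 fold change was 0.053 (95% confidence interval from -0.21 to 0.32, adjusted p = 0.88, limma), an interval that leaves out the change of IGFBP3 and of IGFBP4.

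IGFBP7, a secreted matrix protein with low affinity for IGFs, was the one binding protein with more reads in every HuCCT1/CD90+ library. It was at 6.63, 15.3 and 15.2 RPM in HuCCT1/CD90- and at 30.2, 23.2 and 29.7 RPM in HuCCT1/CD90+. HuCCT1/CD90- replicate 1 was again apart, this time low. The means were 12.4 ± 4.98 and 27.7 ± 3.94 RPM (SD, n = 3 each), a ratio of 2.24. The log2 fold change of 1.17 (standard error 0.36, 95% confidence interval from 0.20 to 2.14) did not pass in limma over all genes (adjusted p = 0.10). It passed over genes averaging 1 RPM or more (adjusted p = 0.0045, limma), with edgeR (adjusted p = 0.00067) and with DESeq2 (adjusted p = 5.4e-05), and over all alternatives the adjusted p ranged from 5.4e-05 to 0.26.

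IGFBP1, a binding protein that insulin represses in liver, was at 13.8, 25.8 and 25.3 RPM in HuCCT1/CD90- and at 16.1, 15.0 and 15.5 RPM in HuCCT1/CD90+. The ranges overlapped through HuCCT1/CD90- replicate 1 alone, and the log2 fold change of -0.40 did not pass (standard error 0.27, adjusted p = 0.42, limma). Without that library it was -0.68 (adjusted p = 0.0047, limma), and the count of genes called lower went from 3 to 4, with 5.96% of all genes lower and 5.64% higher. Without HuCCT1/CD90- replicate 2 or 3 it was -0.26 or -0.27 (adjusted p = 0.73 for both, limma). IGFBP2 had 0 reads in 5 libraries and 1 read in HuCCT1/CD90+ replicate 2.

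The reads of the 7 binding proteins were then summed, bearing in mind that amplicons can differ in efficiency. The sums were 1124, 1291 and 1299 RPM for HuCCT1/CD90-, against 755, 740 and 734 RPM for HuCCT1/CD90+, without overlap. The means were 1238 ± 99.3 and 743 ± 10.9 RPM (SD, n = 3 each), the latter being 60.0% of the HuCCT1/CD90- level, with a two-sided exact permutation p = 0.1, the smallest that 3 against 3 libraries can give. Most of the difference of -495 RPM was from IGFBP3, and without this gene it was -111 RPM. IGFBP3 made up 59.2 ± 1.07% of these reads in HuCCT1/CD90-, against 46.9 ± 4.15% in the other line. The share of IGFBP6 went from 17.8 ± 0.625% to 30.8 ± 3.55% while its own level differed by less than the spread, and that of IGFBP7 from 0.982 ± 0.340% to 3.73 ± 0.516%. For all 3 shares the libraries of the lines did not overlap, again with an exact permutation p = 0.1 each.

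**Figure D2:**
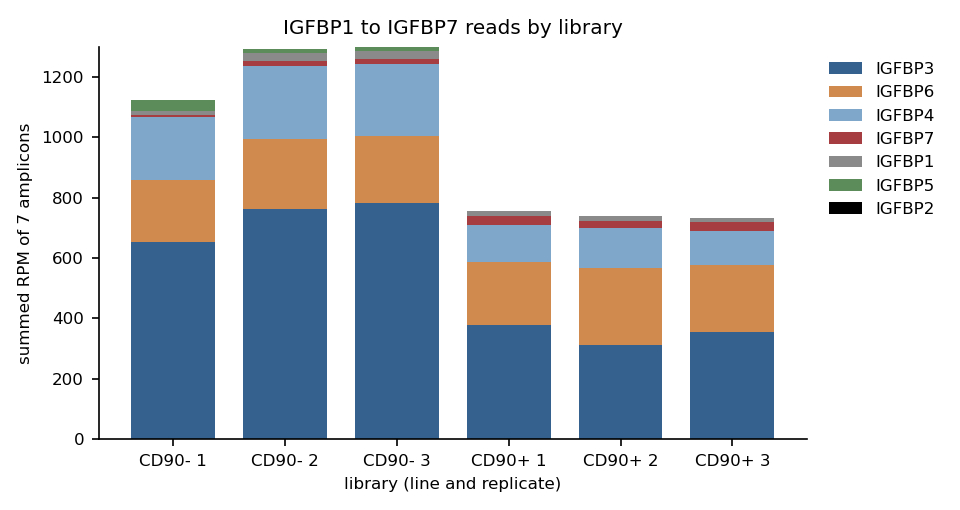
Bars show the summed RPM of the 7 binding protein amplicons in each of the 6 libraries, split by gene. The HuCCT1/CD90- bars reach 1124 to 1299 RPM and the HuCCT1/CD90+ bars 734 to 755 RPM, with less IGFBP3 and IGFBP4 and an IGFBP6 part of similar height.

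IGF1R, the receptor that transmits IGF1 and IGF2 signals, was at 145, 127 and 159 RPM in HuCCT1/CD90- and at 92.1, 103 and 124 RPM in HuCCT1/CD90+. The highest HuCCT1/CD90+ library lay just under the lowest HuCCT1/CD90- library. The means were 143 ± 16.2 and 106 ± 16.0 RPM (SD, n = 3 each), and the log2 fold change of -0.43 (95% confidence interval from -0.82 to -0.040, adjusted p = 0.13, limma) passed neither the p-value nor the fold change. On recovered reads its adjusted p was 0.027 with edgeR and 0.026 with DESeq2, with a fold change that stayed under 1.5. IRS1, the adaptor that IGF1R and the insulin receptor phosphorylate, was at 11.8, 25.0 and 34.3 RPM against 38.3, 28.9 and 41.6 RPM. Its ranges overlapped and the log2 fold change of 0.70 (95% confidence interval from -0.47 to 1.87, adjusted p = 0.40, limma) was within the spread, which in HuCCT1/CD90- reached a coefficient of variation of 47.9%. The log2 fold change of IRS1 was 0.28 without HuCCT1/CD90- replicate 1 and 1.02 without HuCCT1/CD90- replicate 3.

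The setting of these genes was read from a list of 48 further genes of the pathway, of which 47 were in the table, 7 were at the floor in both lines, 9 were called lower and 3 higher. Over all genes 7.49% were called lower and 7.59% higher. With edgeR 11 pathway genes were lower and 7 higher, against 17.3% and 17.5% of all genes it tested. The median log2 fold change of the 47 genes was 0, as over all genes. Of the other receptors, IGF2R was called lower, with 187, 157 and 154 RPM in HuCCT1/CD90-, against 72.0, 79.1 and 73.0 RPM after THY1 transduction. Its mean in HuCCT1/CD90+ was 45.0% of that in HuCCT1/CD90- (log2 difference -1.14, standard error 0.094, adjusted p = 0.0036, limma). Around IGF2R, 12 of the 50 nearest genes averaging 10 RPM or more were above 0, with a median of -0.29. The median over chromosome 6 was -0.30. With the neighbour median subtracted, the log2 difference of IGF2R was -0.85. The insulin receptor gene INSR had few reads, at 2.25 ± 0.0741 and 2.76 ± 1.43 RPM (SD, n = 3 each), and was not called (adjusted p = 0.99, limma).

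HTRA1 and PAPPA, proteases that cut binding proteins, were called lower. HTRA1, a secreted serine protease that cuts IGFBP5, was at 126, 82.4 and 105 RPM in HuCCT1/CD90- and at 7.93, 11.1 and 9.22 RPM in HuCCT1/CD90+. This was an 11.1-fold lower mean (log2 fold change -3.33, standard error 0.20, adjusted p = 0.0018, limma). PAPPA, the metalloprotease that cuts IGFBP4 and IGFBP5, had 12, 29 and 32 reads in HuCCT1/CD90- and 0 reads in each HuCCT1/CD90+ library. From a mean of 2.45 ± 1.14 RPM (SD, n = 3) PAPPA was thus at least 7.01-fold lower in HuCCT1/CD90+ (adjusted p = 0.024, limma, or 0.080 with the block). With an offset of 5 in place of 1 its log2 difference was -0.56, under the fold limit. Without HuCCT1/CD90- replicate 2 or 3, or any 1 of the HuCCT1/CD90+ libraries, the adjusted p of PAPPA was 0.074 to 0.089, and with the block over genes averaging 1 RPM or more it was 0.00017. The stanniocalcin genes STC1 and STC2, whose products inhibit PAPPA, were not called, with log2 fold changes of -0.42 and 0.081. In this group of 7 genes in the table, 2 were called lower (against 7.49% of all genes), none higher (against 7.59%) and 2 were at the floor in both lines.

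Of the 3 IGF2 mRNA-binding proteins, which are named for one of their RNA targets, IGF2BP2 and IGF2BP3 rose, against 7.59% of all genes called higher. IGF2BP2 was at 56.1, 51.3 and 60.5 RPM in HuCCT1/CD90- and at 142, 155 and 139 RPM in HuCCT1/CD90+, a log2 difference of 1.36 (standard error 0.078, adjusted p = 0.0015, limma). IGF2BP3 averaged 5.37 ± 0.315 and 22.3 ± 3.13 RPM, a ratio of 4.16 (log2 fold change 1.86, standard error 0.12, adjusted p = 0.0018, limma). Around IGF2BP2, 44 of the 50 nearest genes averaging 10 RPM or more were above 0 with a median of 0.62, and its log2 difference was 0.74 with this median subtracted. The neighbours of IGF2BP3 had a median of 0.27, against 0.52 over chromosome 7. With the neighbour median subtracted, the log2 difference of IGF2BP3 was 1.59. Neither pair of ranges overlapped, which held upward for 17.3% of all genes, and IGF2BP1 had 0 reads in all 6 libraries.

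Among 8 adaptors and brakes on the receptor, 1 was called higher, GAB1, and 1 lower, SHC1, against 7.59% and 7.49% of all genes. GAB1, a docking protein, averaged 5.78 ± 2.24 RPM without and 18.7 ± 2.07 RPM with THY1 transduction, a log2 difference of 1.59 (adjusted p = 0.030, limma, or 0.080 with the block). SHC1, which links receptors to RAS, averaged 445 ± 47.3 and 293 ± 28.8 RPM, a log2 difference of -0.60 (adjusted p = 0.029, limma). The GAB1 call was lost without HuCCT1/CD90- replicate 3 (adjusted p = 0.084) and without any 1 of the HuCCT1/CD90+ libraries (0.090 to 0.11). The SHC1 call was kept only without HuCCT1/CD90+ replicate 2, with 0.055 to 0.10 without any of the others. GRB10, an adaptor that restrains the receptor, was at 4.64, 13.9 and 14.6 RPM against 18.1, 23.6 and 31.3 RPM, without overlap. It was not called by limma over all genes (adjusted p = 0.21) but was called higher with edgeR, DESeq2 and limma over genes averaging 1 or 10 RPM or more. IRS2 had a log2 fold change of 0.54 and did not pass (adjusted p = 0.072, limma). Of 11 genes of the PI3K-AKT relay, the regulatory subunits PIK3R1 and PIK3R3 were called by limma over all genes, both lower, with log2 fold changes of -0.79 and -1.35 (adjusted p = 0.028 and 0.026, limma, or 0.067 and 0.072 with the block). The PIK3R1 call was kept only without HuCCT1/CD90- replicate 2 (otherwise 0.052 to 0.098), and the PIK3R3 call was lost without any 1 of the 6 libraries (0.052 to 0.077). With the block over genes averaging 1 RPM or more GAB1, PIK3R1 and PIK3R3 were called (adjusted p = 0.00022, 0.0021 and 0.00028, limma). None of the 11 was called higher by limma over all genes, which called 7.49% of all genes lower and 7.59% higher. With edgeR the catalytic subunits PIK3CA and PIK3CB were called higher as well, against 17.5% of all genes.

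FOXO factors are held out of the nucleus by AKT, and 13 of these factors and their targets were listed. TNFSF10, the gene of the death ligand TRAIL, fell to 20.9% of its HuCCT1/CD90- level of 23.8 ± 4.42 RPM, a log2 difference of -2.07 (adjusted p = 0.0085, limma). TXNIP, a redox regulator, fell to 32.9% of its level of 368 ± 70.9 RPM, a log2 difference of -1.61 (adjusted p = 0.017, limma). The TXNIP call was lost without HuCCT1/CD90- replicate 2 or 3 or HuCCT1/CD90+ replicate 1 or 3 (0.053 to 0.067). BCL2L11, the gene of the pro-apoptotic protein BIM, was also called lower, by a log2 difference of -0.68 (adjusted p = 0.0060, limma). With an offset of 5 in place of 1 its log2 difference was -0.55, under the fold limit, as it also is at a minimum fold change of 2. By limma over all genes 3 of the 13 were thus lower and none higher, against 7.49% and 7.59% of all genes. With edgeR BCL6 and SESN1 were lower and CCNG2 higher besides these 3, against 17.3% and 17.5%. FOXO1, FOXO3 and FOXO4 had log2 fold changes of -0.25, 0.14 and 0.26 with adjusted p-values of 0.37, 0.43 and 0.72 (limma).

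**Figure D3:**
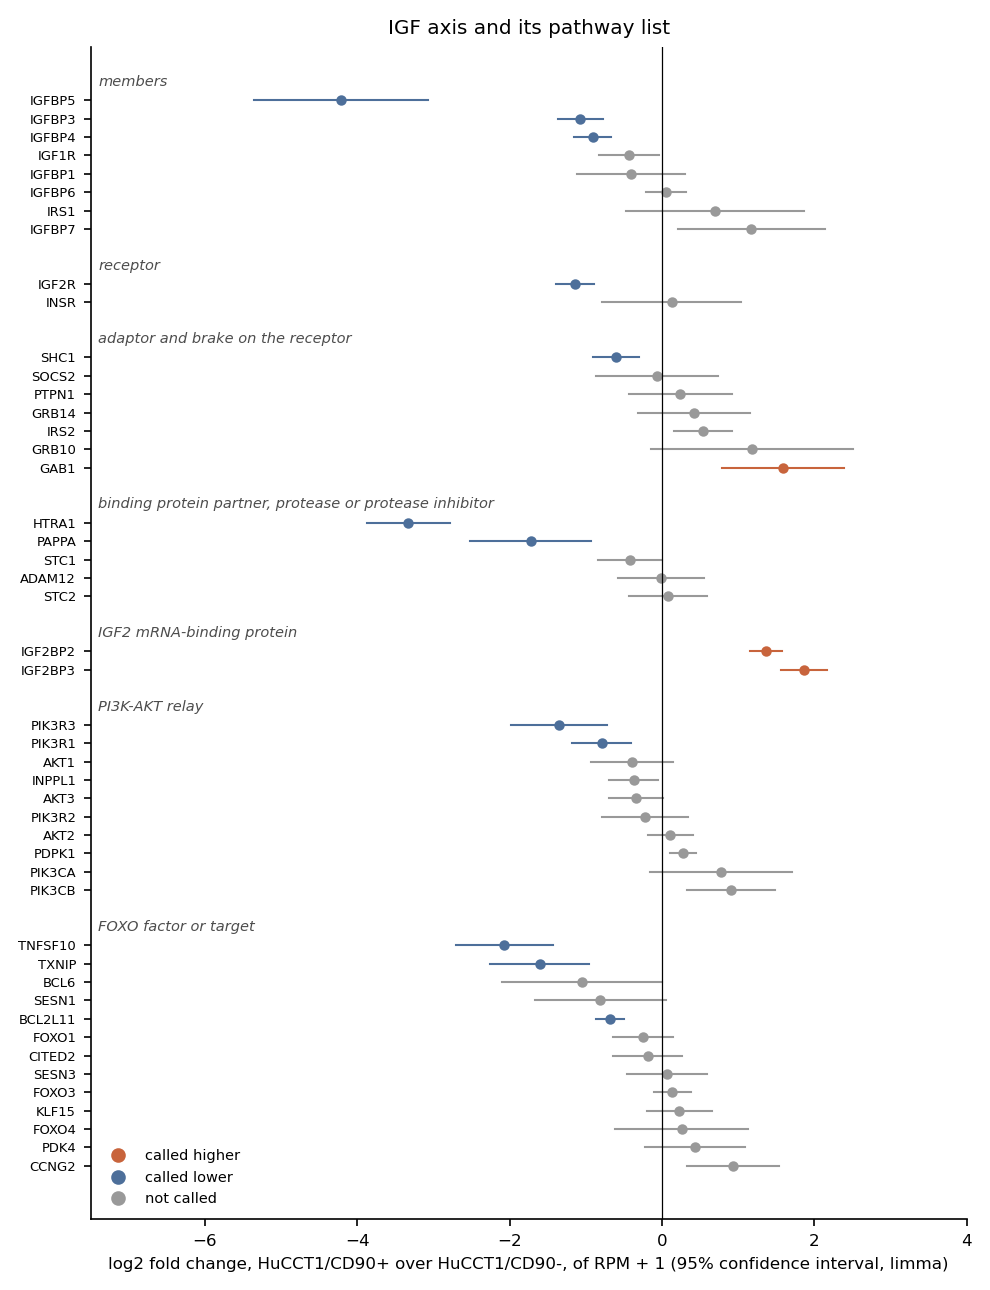
Points show log2 fold changes of RPM + 1 between HuCCT1/CD90+ and HuCCT1/CD90- for the 8 IGF axis genes above the floor in at least 1 line and for genes of the pathway list above the floor, by group, with 95% confidence intervals from limma and n = 3 libraries per line. IGFBP5 and HTRA1 lie farthest to the left, and IGF2BP3 and GAB1 are the rightmost genes that were called.

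Some of the binding protein genes lie beside one another or beside tensin genes, so neighbours on the chromosome were examined. IGFBP1 and IGFBP3 follow each other on chromosome 7 and IGFBP2 and IGFBP5 on chromosome 2, with 0 genes of the table between them. Around IGFBP3, 46 of the 50 nearest genes averaging 10 RPM or more had a log2 fold change above 0, with a median of 0.61, whereas IGFBP3 was lower. The median over the 400 such genes of chromosome 7 was 0.52. With the median of the 50 neighbours subtracted, the log2 fold change of IGFBP3 was -1.68 and that of IGFBP1 -1.02. The next gene on the far side of IGFBP3 is TNS3, which encodes a tensin, a protein that ties integrins to actin. TNS3 fell as well, with means of 548 ± 109 and 287 ± 23.5 RPM (SD, n = 3 each) and a log2 difference of -0.92 (adjusted p = 0.027, limma, or 0.066 with the block). This call was kept only without HuCCT1/CD90- replicate 2, and the adjusted p was 0.053 to 0.088 without any 1 of the others.

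IGFBP4 lies on chromosome 17 beside TNS4, another tensin gene, which fell too. Its means were 847 ± 122 and 295 ± 36.2 RPM (SD, n = 3 each), with a log2 difference of -1.52 (adjusted p = 0.0057, limma, or 0.060 with the block). With the block over genes averaging 1 RPM or more TNS3 and TNS4 were both called (adjusted p = 0.0011 and 0.00013, limma). There the median of the 50 neighbours was -0.11, and with it subtracted the change of IGFBP4 was -0.80. The other two tensin genes were looked up after these values were seen. TENC1, an older symbol of TNS2, lies 1 gene from IGFBP6 and was at 2.70 ± 1.08 and 0.483 ± 0.442 RPM without overlap of the libraries (adjusted p = 0.079, limma), and TNS1, near IGFBP5, had from 1 to 9 reads per library.

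For IGFBP5 the 50 neighbours had a median of 0.13 and left its change at -4.34. IGFBP7 lies in a part of chromosome 4 where 39 of the 50 nearest genes were above 0, with a median of 0.38, and its log2 fold change was 0.80 once this was subtracted. IGF1R lies among neighbours with a median of 0.31, which brings its change to -0.74. Beside IGF2 on chromosome 11, H19, a non-coding RNA gene of the same imprinted domain, was at 120, 104 and 93.9 RPM in HuCCT1/CD90- and at 1.18, 1.63 and 2.06 RPM in HuCCT1/CD90+. H19 was thus 65.2-fold lower (log2 fold change -5.35, standard error 0.17, adjusted p = 0.00043, limma), while IGF2 was at the floor in both lines.

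**Figure D4:**
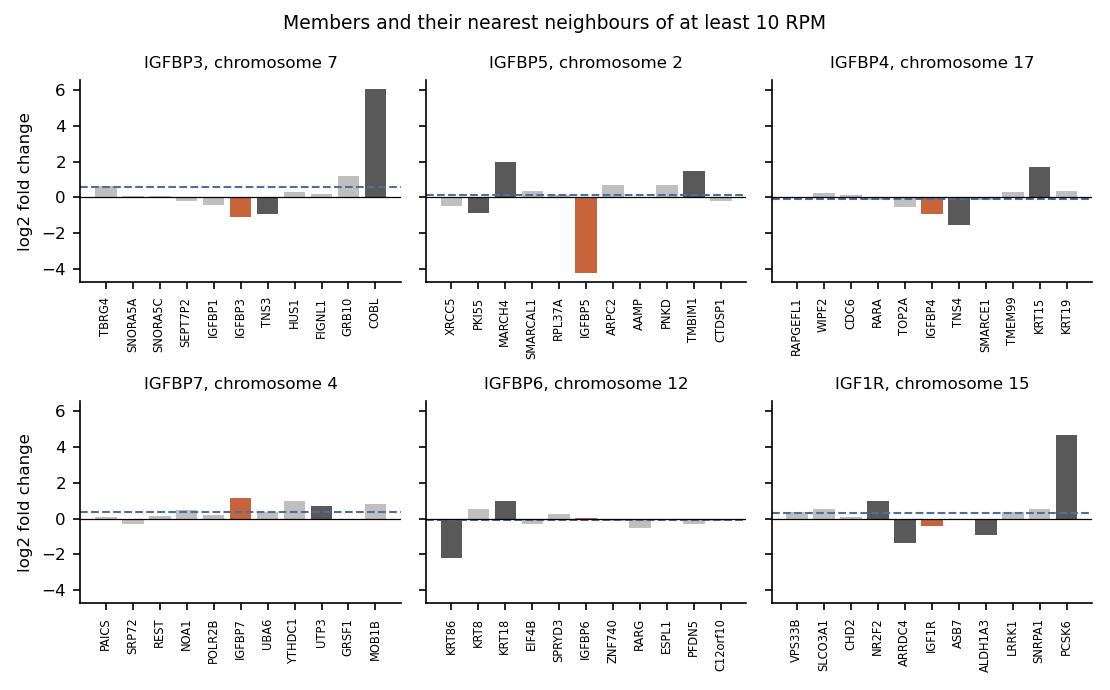
Bars show log2 fold changes of RPM + 1 for 6 IGF axis genes (orange) and the 5 nearest genes on each side that averaged 10 RPM or more, in chromosome order and not to scale, with dark grey for neighbours that were called and light grey for the others. The dashed line is the median of the 50 nearest such genes, which lies at 0.61 around IGFBP3 while IGFBP3 and TNS3 are lower.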

How the data were processed

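RNA of 3 libraries per line was reverse-transcribed, amplified with an AmpliSeq human transcriptome panel (1 amplicon per gene) and read on an Ion Torrent S5 Prime. Per the labels and the paper's methods, the authors aligned and counted with ampliSeqRNA, a Torrent Suite plugin. They deposited RPM values, reads scaled to a common library total, for 20811 genes with no log and no filter. The submitters' processing notes name the build hg19. Amplicon positions were not used here, so isoforms that an amplicon misses go unseen.

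RPM values were whole multiples of 1 read (100% within 0.00051 RPM), so whole reads were recovered. Floors cover counting error only, since reads carry no molecular identifiers. Differences were fitted with limma 3.58.1 (lmFit, eBayes) in R 4.3.3 on log2(RPM + 1) over all 20811 genes, of which 3805 had no reads. The moderated test and the 1.5-fold limit follow the study's methods. Adding 1 shrinks the change of genes with few reads. The scripts were tested on simulated data. There limma over all genes missed most 2-fold changes, and with the block over all genes it missed every change. A gene that was not called is not shown to be equal. edgeR 4.0.16 (quasi-likelihood, TMM, filterByExpr) and DESeq2 1.42.0 were run on recovered reads. Reads of every pair of libraries differed by more than sampling noise in a chi-square test.

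Same-numbered libraries deviated together from the means of their lines (r = 0.21, 0.32 and 0.18 over all genes, against -0.29 to 0.071 for other pairs). Deviations within a line cancel out. Higher values for same-numbered pairs therefore push the other pairs lower, so this contrast is partly built in. On this check alone, since the labels do not say what a number marks, same-numbered libraries were treated as pairs in an alternative with the number as a block. Gene order was taken from RefSeq (GRCh38.p14), which located 19880 of the 20811 genes by symbol or synonym. The genes and lists were chosen with earlier results of these data known. The genes named are the 10 of the axis, called genes of the pathway list with others of their groups for comparison, THY1, and chromosome neighbours averaging 10 RPM or more. Named outside this rule, after values were seen, are TENC1, TNS1, cell type markers, and the ligands IGF1 and INS. IGFALS was not found in the table. The values of 1 gene of the PI3K-AKT group are not reported here.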

Additional observations from a re-analysis of the deposited data

How the results depend on the processing

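IGFBP3, IGFBP4 and IGFBP5 stayed lower in all alternatives. Their calls were lost for IGFBP3 with the replicate block over all genes and for IGFBP4 at a minimum fold change of 2, and in no other alternative. With the block over genes averaging 1 RPM or more, added after seeing the data, 3 genes of the axis were called lower and 1 higher. The count called higher was 1 in place of 0, IGFBP7, over genes averaging at least 1 or 10 RPM, with median centring, edgeR, DESeq2 and an unadjusted p. The log2 fold change of IGFBP6 ran from -0.031 (without HuCCT1/CD90+ replicate 2) to 0.12 (without HuCCT1/CD90+ replicate 1) when a library was left out. The pathway genes called higher were 3, and 7 over genes averaging 1 RPM or more (with and without the block), with edgeR and with DESeq2, 6 over those averaging 10 RPM or more, and 5 with quantile normalization, median centring and an unadjusted p. They were 2 with the replicate block over all genes, and 2 to 4 when a library was left out. Of all genes 7.59% were called higher, and 16.7% over genes averaging 1 RPM or more (17.0% with the block). The share was 17.5% with edgeR, 12.8% with DESeq2 and 15.6% over genes averaging 10 RPM or more. It was 8.92% with median centring, 10.1% with an unadjusted p and 5.24% with the replicate block over all genes. Quantile normalization called 1617 of all genes higher. Pathway genes called lower were 9, against 7.49% of all genes. They were 11 over genes averaging 1 RPM or more without the block (16.5%), with it (16.8%) and with edgeR (17.3%). With DESeq2 (12.1%) and an unadjusted p (9.98%) they were 10. They were 6 with the replicate block over all genes (4.86%) and at a minimum fold change of 2, and 7 with an offset of 5. When a library was left out they went from 9 to between 4 and 6. There were 4 without HuCCT1/CD90- replicate 3, HuCCT1/CD90+ replicate 1 or HuCCT1/CD90+ replicate 3. There were 5 without HuCCT1/CD90- replicate 2, and 6 without HuCCT1/CD90- replicate 1 or HuCCT1/CD90+ replicate 2. Over all genes 1580 were called higher and 1558 lower, against 952 and 922 at a minimum fold change of 2, and 1011 lower with the replicate block. Leaving out a library gave 960 to 1174 higher and 908 to 1240 lower, with fewer samples in each fit. The summed binding proteins stayed lower in all alternatives, and the difference went from -495 to -111 RPM without IGFBP3.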
